A study of Sus scrofa with 3 samples.

Results

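Intergenic transcripts outside the annotation, taken as unstranded because they are listed on 2 identical lines, that were recovered with both the EZH2 antibody and the IgG control antibody are described here. The members were chosen by EZH2_FPKM and IgG_FPKM, the levels in the 2 precipitates, which both had to be above 0, whatever the level in total RNA. They also had to be listed on 2 identical lines and lie on chromosomes 1 to 18, and 7 identifiers were left out by name. This gave 536 of the 14580 distinct transcripts. FPKM is the number of sequenced fragments scaled to the length of the transcript and to the mapped fragments of the library. Since EZH2_FPKM and IgG_FPKM chose the members, their values and their ratio are given as a description. The level in total RNA, lincRNA_FPKM, was not used to choose them.

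EZH2 is the methyltransferase of PRC2, a polycomb complex that methylates histone H3 and keeps genes silent, among them muscle genes in cells that have not yet differentiated. The complex binds many RNAs, in part with little sequence preference. In RNA immunoprecipitation a protein is captured from lysed tissue by its antibody, and the RNA bound to it is sequenced. An IgG antibody that recognizes no particular protein shows which RNAs stay on beads and antibody without the target. An assembler such as Cufflinks reads the strand of a transcript from splice junctions or from a library that keeps strand, and leaves an unspliced transcript without a strand where neither is given.

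All libraries came from longissimus dorsi, the long back muscle, of Large White female pigs aged 1 month, without genetic modification or treatment being named. The study's text speaks of a single animal in places and of several pigs for the precipitates in another, so the number of animals is not settled. There was 1 library from the EZH2 precipitate, 1 from the IgG precipitate and 1 from total RNA depleted of ribosomal RNA (lincRNAseq). The precipitates and the total RNA were made into libraries by different protocols and sequenced by different providers, so a difference between a precipitate and total RNA cannot be told apart from a difference in library preparation. With 1 library per condition no difference has a replicate check and no test was made. Muscle markers could not be looked up, because the identifiers were not paired with gene names and 0 of the members matched a gene name or accession. The files hold no strand column. The members that also stand in the study's list of lincRNAs are given there without a strand, but they are a small part of the members, so the name was not checked for most.

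More transcripts were listed above 0 with EZH2 than with IgG. The depth of the libraries is unknown. From the steps of the precipitate ratio, described below, 1 IgG fragment can be read as carrying the FPKM of 5.05 EZH2 fragments. The part of depth in this difference was not tested. Among the 10244 transcripts on 2 identical lines of chromosomes 1 to 18, without the 7 left out, 4434 were above 0 in the EZH2 precipitate (43.3%, 95% Wilson interval 42.3 to 44.2) and 691 in the IgG precipitate (6.75%, 6.28 to 7.25). The 536 members were 5.23% (4.82 to 5.68) of these transcripts. They made up 12.1% (11.2 to 13.1) of the transcripts found with EZH2 and 77.6% (74.3 to 80.5) of those found with IgG. The remaining transcripts were found with EZH2 alone (3898), with IgG alone (155) or with neither antibody (5655). Intervals of shares, here and further on, cover counting error over transcripts only, not the spread between pigs or precipitations.

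Levels of the members spread widely in all libraries, with a long upper tail. EZH2_FPKM ran from 0.000399 to 2442, with a median of 4.09 and quartiles of 1.82 and 9.65. IgG_FPKM ran from 0.365 to 893.1, with a median of 5.17 and quartiles of 2.71 and 12.0. lincRNA_FPKM ran from 0 to 2318, with a median of 0.443 and quartiles of 0.286 and 0.825. Over all distinct transcripts the upper quartile was 2.61 with EZH2 and 0 with IgG, below the members' medians, as the rule favours. Of the FPKM summed over all distinct transcripts, the members held 11.1% with EZH2, 30.0% with IgG and 2.57% in lincRNAseq. At the edge of the rule, the lowest EZH2 level, 0.000399 FPKM, belonged to TCONS_00004212 on chromosome 1, which had 10.8 FPKM with IgG and 8.04e-06 in total RNA. The lowest IgG level, 0.365 FPKM, belonged to TCONS_00047403 on chromosome 4, which had 2.53 FPKM with EZH2 and 0.851 in total RNA. Of the transcripts outside the rule only for being at 0 in a precipitate, those highest in the remaining precipitate were picked. TCONS_00025537 on chromosome 15 had an EZH2_FPKM of 578.6 and was listed at 0 in the other libraries. TCONS_00025357, also on chromosome 15, had an IgG_FPKM of 174.4 and was listed at 0 in the other libraries.

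The precipitates ranked the members in partly the same order. Across the 536 members, which share the libraries and each transcript's length, Spearman's rho of EZH2_FPKM and IgG_FPKM was 0.49, and Pearson's r of log2(FPKM + 2) was 0.73. These values pool members of unlike level in total RNA, and what shared length alone would give was not tested. Ranked by the lower of their values in the precipitates, the first 3 members lay on chromosome 15 and were listed at 0 in total RNA. TCONS_00025360 reached 2442 FPKM with EZH2 and 893.1 with IgG, the highest of all members in either precipitate. TCONS_00025362 reached 1671 FPKM with EZH2 and 559.6 with IgG. TCONS_00025363 reached 1195 FPKM with EZH2 and 867.2 with IgG. The order of these members thus differed between the precipitates. By EZH2_FPKM alone TCONS_00053345 on chromosome 6, named after its values were seen, came directly after TCONS_00025360, at 2169.9 FPKM with EZH2, 334.3 with IgG and 0 in total RNA. The 10 members of highest IgG_FPKM, all at 279.5 or more, held 41.1% of the members' summed IgG_FPKM and 56.7% of their summed EZH2_FPKM. Of these 10, EZH2_FPKM was the higher value in 8, 6 lay on chromosome 15 and 6 were listed at 0 in total RNA.

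**Figure D1:**
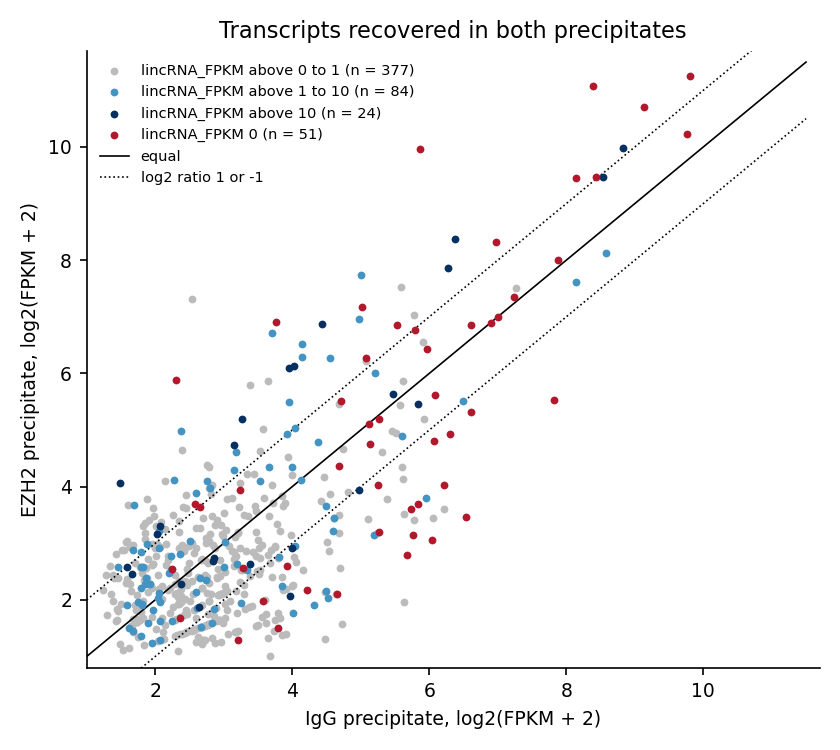
Each point is 1 of the 536 members, with log2(IgG_FPKM + 2) on the x axis and log2(EZH2_FPKM + 2) on the y axis, coloured by lincRNA_FPKM. The solid line marks equal levels and the dotted lines log2 ratios of 1 and -1. Most points crowd at low levels, and many of the highest in both precipitates belong to the 51 members listed at 0 in total RNA.

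The ratio of the precipitates, log2[(EZH2_FPKM + 2)/(IgG_FPKM + 2)], leaned slightly to IgG. The pseudocount of 2 and the threshold of 1 follow the study's methods, and on this scale the difference of low transcripts is understated. The median was -0.20, with quartiles of -1.02 and 0.62 and a range of -3.68 to 4.78. IgG_FPKM was the higher value in 313 members and EZH2_FPKM in 223. The ratio was at least 1 in 89 members (16.6%), against 25.8% of all distinct transcripts, and at most -1 in 135 members (25.2%), against 2.78% of all. Nothing is read from these differences, because the rule used both values and transcripts at 0 with IgG, which it leaves out, can only lie on the EZH2 side. Over all 815 transcripts of the series above 0 in both precipitates, the median was -0.11, with 167 at or above 1 and 197 at or below -1.

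By the log2 ratio with the pseudocount of 2, the members farthest apart between the precipitates were on several chromosomes. The order differs without a pseudocount. TCONS_00004212 on chromosome 1 then had a ratio of 3.7e-05, far below those of the lowest members named here. TCONS_00030861 on chromosome 17 reached 157.2 FPKM with EZH2, 3.80 with IgG and 0.937 in total RNA, giving a log2 ratio of the precipitates of 4.78. TCONS_00025545 on chromosome 15 reached 1002 FPKM with EZH2, 56.2 with IgG and 0 in total RNA, giving a log2 ratio of 4.11. At the other end, TCONS_00043180 on chromosome 3 reached 1.89 FPKM with EZH2, 47.7 with IgG and 0.541 in total RNA, giving a log2 ratio of -3.68. TCONS_00037484 on chromosome 2 reached 0.464 FPKM with EZH2, 20.4 with IgG and 0.620 in total RNA, giving a log2 ratio of -3.18. Members with a ratio of at least 1 had a median EZH2_FPKM of 15.1 and a median IgG_FPKM of 3.96. Members with a ratio of at most -1 had medians of 1.72 and 10.8.

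Without a pseudocount, the ratio EZH2_FPKM/IgG_FPKM did not vary smoothly but fell on steps. Transcript length cancels in this ratio, so that few whole fragments would leave a comb of values. The step was 0.198, which 57 members shared, and it can be read as 1 fragment in each library. On that reading 1 IgG fragment carried the FPKM of 5.05 EZH2 fragments. The ratio was a whole multiple of the step in 313 members (58.4%), within a tolerance of 0.005 of the step, which takes in 1% of the line. Ratios of whole numbers with at most 10 IgG fragments took in 473 members (88.2%), where the tolerance takes in 6.22% of the line, and 63 had none. The 223 members at no whole multiple of the step, a group chosen after the data were seen, had a median log2 ratio of -0.44. Every ratio under the step falls in this group, so its lower median is partly built in. The most frequent lowest numbers were 1 EZH2 to 1 IgG fragment in 57 members, 2 to 1 in 43 and 3 to 1 in 29. True numbers may be multiples of these. TCONS_00030861, TCONS_00025545 and TCONS_00004212 had no such numbers. On this reading the ratio of TCONS_00004212, 3.7e-05, is too low for 1 EZH2 fragment to at most 10 IgG fragments. Whether its EZH2_FPKM stands for a whole fragment was not tested.

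**Figure D2:**
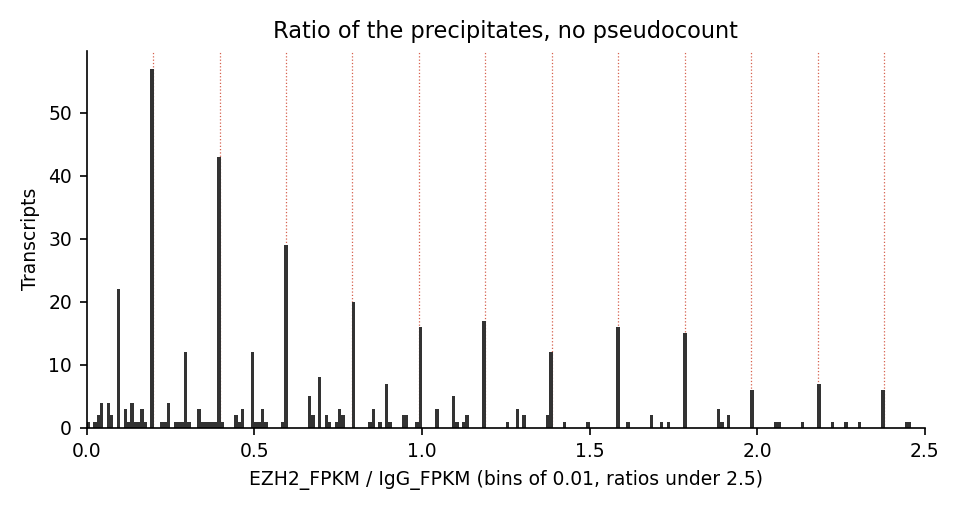
Number of members (y axis) by EZH2_FPKM/IgG_FPKM without a pseudocount (x axis), in bins of 0.01, for ratios under 2.5. Dotted lines mark whole multiples of the step of 0.198. The tallest bar, at the step itself, holds 57 members.

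On the same reading, the steps bear on the precision of each ratio. At 1 fragment in each library, the ratio of 0.198 has an exact 95% interval of 0.00252 to 15.6, and at 5 EZH2 fragments to 1 IgG fragment the ratio of 0.991 has 0.111 to 46.9. These intervals cover counting error only, since amplified fragments are not independent molecules. If these are the true numbers, a difference between the precipitates was not detectable in such members. Of the 135 members with a log2 ratio of at most -1, 76 had 1 EZH2 fragment as their lowest number. Of the 89 with a log2 ratio of at least 1, 54 (60.7%) were at whole multiples of the step, against 58.4% of all members. At such multiples 1 IgG fragment would give the value. TCONS_00043180 stood at 1 EZH2 to 5 IgG fragments, a ratio of 0.0396 with an interval of 0.000838 to 0.354. It was picked as the member of lowest log2 ratio, and the interval takes no account of that choice. TCONS_00025360 stood at 69 to 5, a ratio of 2.73 with an interval of 1.12 to 8.69. This match lay near the edge of the tolerance, and TCONS_00025361, TCONS_00025362 and TCONS_00025363 had no such numbers. The fragment numbers and the interval of TCONS_00025360 are therefore uncertain. Ratios to lincRNAseq had no such comb, with at most 4 of 485 members sharing a value for EZH2 and 6 for IgG when rounded to 3 digits.

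Members were listed in total RNA somewhat more often than other transcripts of their kind. In a tissue, fewer cells holding an RNA and less RNA per cell cannot be told apart. lincRNA_FPKM was above 0 in 485 of the 536 members (90.5%, 87.7 to 92.7). The share was 86.6% (85.5 to 87.7) in transcripts found with EZH2 alone, 81.9% (75.1 to 87.2) with IgG alone and 79.6% (78.5 to 80.6) with neither. It was not particular to the members among transcripts above 0 in both precipitates. On 1 line of chromosomes 1 to 18 it was 94.3% (89.2 to 97.1). On 2 lines of chromosome X and unplaced scaffolds it was 93.3% (86.8 to 96.7). lincRNA_FPKM was above 1 in 108 members (20.1%, 17.0 to 23.8), against 14.9% (13.8 to 16.1) with EZH2 alone, 14.2% (9.56 to 20.6) with IgG alone and 13.4% (12.5 to 14.3) with neither. Over all 14580 distinct transcripts, 85.5% (84.9 to 86.1) were above 0 and 24.5% (23.8 to 25.2) above 1. Above 1, members were thus below the share of the whole series. Above 0, the interval of the members lay above those of IgG alone and of neither. Its lower limit, 87.71%, was barely above the upper limit of EZH2 alone, 87.67%. Above 1, the interval of the members lay above those of EZH2 alone and of neither and overlapped that of IgG alone. With 0.1 as the limit the shares were 87.5% (84.4 to 90.0) in members and 83.3% (82.1 to 84.5) with EZH2 alone, and the intervals overlapped. Among the 223 members whose precipitate ratio was no whole multiple of the step, 87.0% were above 0. Median lincRNA_FPKM was 0.443 in members, 0.356 with EZH2 alone, 0.310 with IgG alone and 0.323 with neither.

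Read from total RNA, the share of transcripts recovered in both precipitates was higher at higher lincRNA_FPKM. It was 2.91% (2.22 to 3.80) of 1754 transcripts listed at 0, 5.37% (4.87 to 5.92) of 7021 above 0 to 1, 6.92% (5.62 to 8.49) of 1214 above 1 to 10 and 9.41% (6.41 to 13.6) of 255 above 10. The interval at 0 lay below the other intervals, and the intervals of neighbouring classes above 0 overlapped. Recovery with IgG was 4.50%, 6.87%, 8.40% and 11.0% in the same classes. Recovery with EZH2 was 32.6% at 0 and 45.2%, 47.3% and 45.5% above it, without a further difference beyond the intervals.

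**Figure D3:**
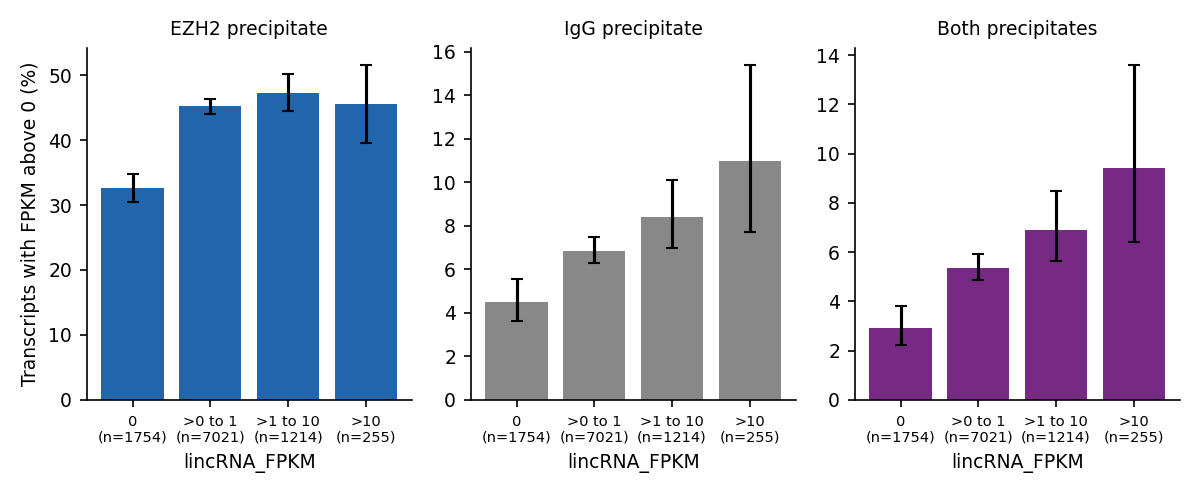
Share of transcripts on 2 identical lines of chromosomes 1 to 18 with FPKM above 0 (y axis, %, on a separate scale in each panel) in the EZH2 precipitate, the IgG precipitate and both, by class of lincRNA_FPKM (x axis). Bars start at 0 and error bars are 95% Wilson intervals. The share recovered in both goes from 2.91% at 0 to 9.41% above 10.

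At like EZH2_FPKM, members were listed above 0 in total RNA more often than transcripts found with EZH2 alone in the middle classes. At an EZH2_FPKM of 1 to under 10, lincRNA_FPKM was above 0 in 96.4% (93.9 to 97.9) of 336 members and in 91.5% (90.4 to 92.5) of 2658 transcripts found with EZH2 alone. At 10 to under 100 the shares were 80.4% (71.6 to 86.9) of 102 and 64.3% (60.3 to 68.1) of 566. Under 1 they were 97.0% of 67 and 97.1% of 554. At 100 and above they were 45.2% (29.2 to 62.2) of 31 and 35.8% (27.8 to 44.7) of 120, with overlapping intervals. Above 1 in total RNA, the shares were 8.96% in members and 12.1% with EZH2 alone in the lowest class. In the middle classes they were 17.9% (14.1 to 22.3) against 13.0% (11.8 to 14.3) and 31.4% (23.2 to 40.9) against 23.3% (20.0 to 27.0), and in the highest class 32.3% against 31.7%. The intervals above 1 overlapped in each class. Members most abundant in the EZH2 precipitate were thus the least often above 0 in total RNA, as were the transcripts found with EZH2 alone. With 1 as the limit the shares went the other way. They were lowest in the lowest class of EZH2_FPKM and highest in the highest class, in members and with EZH2 alone. Recovery with IgG among transcripts above 0 with EZH2 was 10.8%, 11.2%, 15.3% and 20.5% from the lowest to the highest class. Transcript lengths were not used here, so like FPKM need not mean like fragment numbers.

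Most members stood higher in both precipitates than in total RNA. Both EZH2_FPKM and IgG_FPKM were above lincRNA_FPKM in 460 members (85.8%), both were below it in 38, EZH2_FPKM alone was above it in 12 and IgG_FPKM alone in 26. The rule favours this order, because it asks for values above 0 in the precipitates and not in total RNA, so nothing is read from it or from the shares past the thresholds. The log2 ratio of EZH2 to total RNA, with the same pseudocount, had a median of 1.14, quartiles of 0.44 and 2.06 and a range of -4.24 to 10.26. It was at least 1 in 291 members (54.3%), against 20.2% of all distinct transcripts, and at most -1 in 20 (3.73%), against 11.6% of all. The log2 ratio of IgG to total RNA had a median of 1.43, quartiles of 0.66 and 2.28 and a range of -4.94 to 8.81. It was at least 1 in 353 members (65.9%), against 4.61% of all distinct transcripts, and at most -1 in 23 (4.29%), against 15.7% of all. Both ratios were at least 1 in 223 members (41.6%), against 2.19% of all distinct transcripts, and both share the total RNA library.

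These values depended on the pseudocount and on the scaling between libraries. With a pseudocount of 0.1 the medians were 2.60 for EZH2 and 3.16 for IgG, and the EZH2 ratio was at least 1 in 437 members, against 32.0% of all distinct transcripts. Over all transcripts of the series above 0 in the pair of libraries compared, the median log2 ratio to total RNA was 0.79 for EZH2 (5523 transcripts) and 1.30 for IgG (938 transcripts). Relative to these medians, the members' median was 0.35 for EZH2, with 162 members at or above 1 and 45 at or below -1, against 10.5% and 38.9% of all distinct transcripts. For IgG it was 0.13, with 130 at or above 1 and 83 at or below -1, against 1.98% and 94.3%. The 94.3% is largely fixed by the centring, because every transcript at 0 with IgG falls below -1 once 1.30 is taken off. The 485 members above 0 in total RNA are among the transcripts that set these medians, so a value near 0 is largely fixed by the centring for IgG. Transcripts found with EZH2 alone had a median EZH2 ratio of 1.01, with 50.3% at or above 1, against 1.14 and 54.3% in the members.

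**Figure D4:**
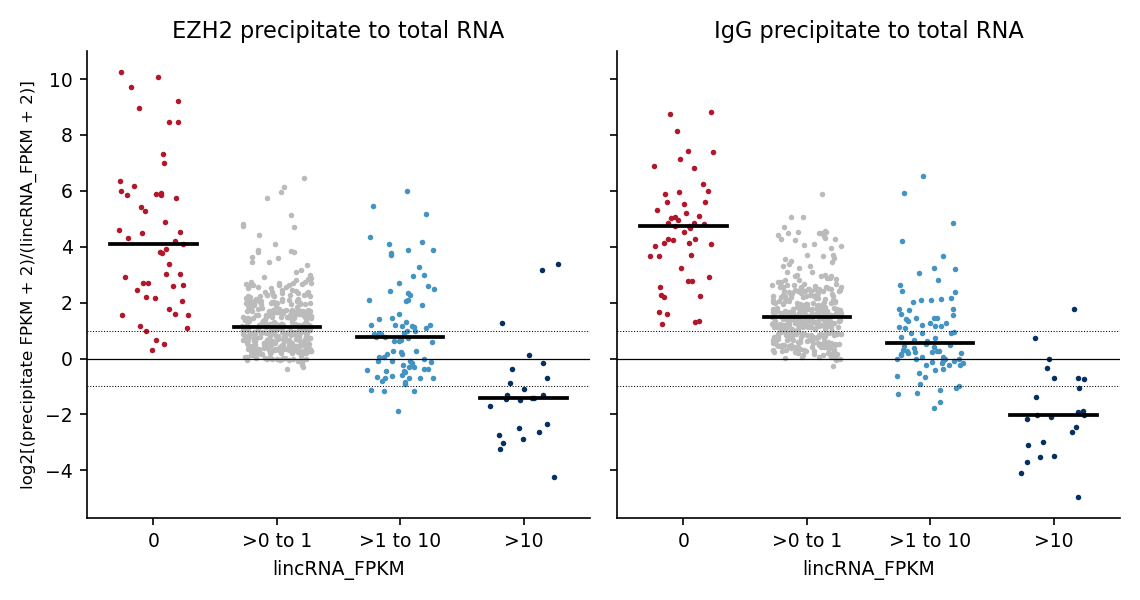
Log2 ratio of each precipitate to total RNA, with a pseudocount of 2 (y axis), for the 536 members by class of lincRNA_FPKM (x axis), EZH2 on the left and IgG on the right. Points are members, spread sideways for legibility, thick lines are medians and dotted lines mark 1 and -1. The medians go from 4.11 and 4.73 at 0 to -1.42 and -2.03 above 10, a fall that is built in, since lincRNA_FPKM sets both the classes and the denominator.

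Across the members the levels in the precipitates did not follow the level in total RNA in a single direction. Spearman's rho with lincRNA_FPKM was 0.05 for EZH2_FPKM and -0.19 for IgG_FPKM, and Pearson's r of log2(FPKM + 2) was 0.25 and 0.12. Among the 485 members above 0 in total RNA, rho was 0.27 for EZH2 and 0.0052 for IgG, and r was 0.44 and 0.28, while rho between the precipitates was 0.40. With a pseudocount of 0.1, r between IgG and total RNA over all members was -0.095, so its sign rests on the pseudocount, and that of EZH2 was 0.089. With at least 1 FPKM in both precipitates the rho of EZH2 was -0.015, and with all chromosomes and scaffolds that of IgG was -0.082. With total RNA, EZH2 had a rho of 0.36 and an r of 0.59, and IgG 0.21 and 0.37, in 141 transcripts above 0 in both precipitates on 1 line of chromosomes 1 to 18. In 104 on 2 lines of chromosome X and unplaced scaffolds, EZH2 had 0.39 and 0.42, and IgG 0.26 and 0.34. The rho of IgG was thus above 0 in both sets and below 0 over all members, but 0.0052 in the 485 members above 0 in total RNA. It was not computed for the other sets without their transcripts at 0 in total RNA. The points share transcript length and libraries, and the coefficients are a description.

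By level in total RNA, the values in the precipitates, which chose the members, are a description. At 0, median EZH2_FPKM of 51 members was 32.5 and median IgG_FPKM 51.1, against 3.28 and 4.68 in the 377 members above 0 to 1. The 84 members above 1 to 10 had medians of 4.79 and 4.74, and the 24 members above 10 had 14.1 and 11.0. These medians were higher at 0 and above 10 than in between, in few members. The median log2 ratio of EZH2 to IgG was -0.01 at 0, -0.30 above 0 to 1, 0.11 above 1 to 10 and 0.96 above 10. lincRNA_FPKM was above 1 in 36.0% (26.8 to 46.3) of the 89 members with an EZH2 to IgG ratio of at least 1, in 18.6% (14.7 to 23.3) of the 312 between and in 13.3% (8.60 to 20.1) of the 135 with a ratio of at most -1. The ratio was used by the rule and rests on few fragments in many of these members. The 3 groups also differ in level, with median EZH2_FPKM of 15.1, 3.78 and 1.72 in the same order. Nothing is therefore read from the difference of these shares.

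The 3 members picked as highest in total RNA were lower in both precipitates, which the choice itself favours. TCONS_00035711 on chromosome 2 reached 2318 FPKM in total RNA, 708.8 with EZH2 and 369.9 with IgG. TCONS_00025558 on chromosome 15 reached 1862 FPKM in total RNA, 1012 with EZH2 and 454.0 with IgG. TCONS_00066886 on chromosome 9 reached 292.8 FPKM in total RNA, 34.6 with EZH2 and 7.58 with IgG. EZH2_FPKM exceeded IgG_FPKM in each, with log2 ratios of 0.93, 1.15 and 1.93. At their lowest fragment numbers, 29 to 3, 45 to 4 and 23 to 1, the FPKM ratio has intervals of 0.594 to 9.83, 0.813 to 8.54 and 0.740 to 188, which larger true numbers would narrow.

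Other transcripts above 0 in both precipitates were more abundant in total RNA. The 141 on 1 line of chromosomes 1 to 18 had a median lincRNA_FPKM of 1.41, with 56.0% (47.8 to 64.0) above 1, and the 104 on 2 lines of chromosome X and unplaced scaffolds had 0.684 and 40.4% (31.5 to 50.0). Both intervals lay above that of the members. Their median log2 ratio of EZH2 to IgG was 0.17 and -0.17, and rho between the precipitates was 0.63 and 0.71, against 0.49 in the members. The ratio was a whole multiple of the same step in 28.4% of the former and 63.5% of the latter, against 58.4% of the members.

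Members were spread over all of chromosomes 1 to 18. The share of transcripts recovered in both precipitates went from 2.27% (1.27 to 4.02) of 485 on chromosome 8 to 7.21% (4.42 to 11.6) of 208 on chromosome 17. Chromosome 1 held the most members, 97 of 1401 (6.92%, 5.71 to 8.37). The intervals of chromosomes 1 and 8 did not take in the share of 5.23% over all 18, and those of the other 16 did. With 18 intervals read at once, some are likely to miss by counting error alone.

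**Figure D5:**
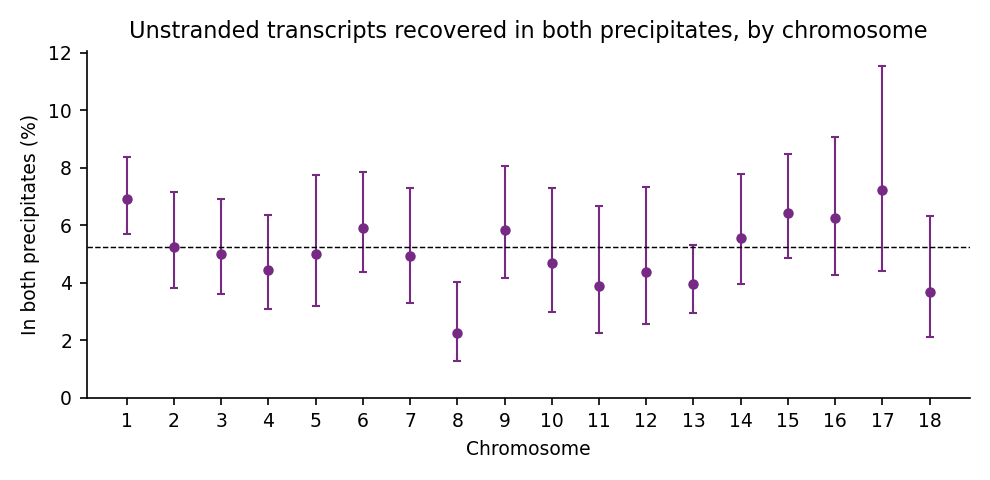
Share of transcripts on 2 identical lines recovered in both precipitates (y axis, %) by chromosome (x axis). Points are shares, bars are 95% Wilson intervals and the dashed line is the share over all chromosomes shown, 5.23%. Chromosome 8 lies below the line and chromosome 1 above it with their whole intervals.

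Members also followed each other in the numbering of the transcripts. Another member stood at the next lower or next higher number for 81 of the 536 members (15.1%, 12.3 to 18.4). A member stood there for 10.1% (9.15 to 11.0) of transcripts found with EZH2 alone, 8.39% (4.97 to 13.8) with IgG alone and 4.83% (4.30 to 5.42) with neither. This count was chosen after the values were seen, and the numbering is no position, which the files do not give. There were 2 longest series of consecutive numbers, each holding 4 members. The one on chromosome 15 is bounded by identifiers left out by name, and with these kept it would hold 7 members. TCONS_00025360 to TCONS_00025363 on chromosome 15 had EZH2_FPKM of 702.2 to 2442, IgG_FPKM of 279.5 to 893.1 and a lincRNA_FPKM of 0. TCONS_00041805 to TCONS_00041808 on chromosome 3 had EZH2_FPKM of 15.1 to 30.8, IgG_FPKM of 3.17 to 41.8 and lincRNA_FPKM of 0.186 to 5.59. Whether such neighbours belong to the same RNA was not tested.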

How the data were processed

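RIP-Seq and lincRNAseq reads were trimmed by the authors, aligned with TopHat2 to the Sus_scrofa 10.2 build, assembled with Cufflinks and measured with Cuffdiff, without versions being named. The deposited values are FPKM per transcript and library. Total fragment numbers per library are unknown, and the steps of the ratio were the only sign of depth. Each transcript was counted once. Members and lists were chosen with earlier results of these data known. Ratios were log2[(A + 2)/(B + 2)], with a threshold of 1. Shares have 95% Wilson intervals, and fragment ratios have exact (Clopper-Pearson) intervals. Named members were those highest in both precipitates, with the largest or smallest ratio, highest in total RNA, and lowest above 0 in either precipitate. Added to these were the highest transcripts at 0 in the other precipitate, among those that met the rest of the rule. Alternatives changed the pseudocount, threshold, scaling, lowest level, chromosomes and members. Intervals and correlations came from scipy 1.17.1, tables from pandas 2.3.3 with numpy 2.4.6, and plots from matplotlib 3.10.9, under Python 3.11.15. The step was read off as the median ratio within a fixed narrow window. The code for the log2 ratio, the step and the lowest whole numbers was tested on simulated data, with a simulated step inside that window. Shares, intervals and correlations were not tested in this way.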

Additional observations from a re-analysis of the deposited data

How the results depend on the processing

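Of 134 alternative values for 19 results, 97 stayed within their tolerance (the 95% interval of a share or median, 1.5 times for a count, 0.1 for a correlation), 36 moved and 1 moved with a change of sign. The 97 include Spearman's rho under other pseudocounts, which could not move because ranks do not depend on the pseudocount. With a pseudocount of 1 the median log2 ratio to total RNA was 1.57 for EZH2 and 1.96 for IgG. With 0.1 the medians were 2.60 and 3.16, the EZH2 ratio was at or above 1 in 437 members and at or below -1 in 31 (32.0% and 48.8% of all transcripts), and Pearson's r with total RNA was 0.089 for EZH2 and -0.095, with a change of sign, for IgG. With at least 1 FPKM in both precipitates (446 members) the medians were 1.39 and 1.56, and rho of EZH2 with total RNA changed sign within the tolerance, from 0.05 to -0.015. With all chromosomes and scaffolds (640) rho of IgG with total RNA was -0.082. At a threshold of 2, which by construction passes fewer, 19 members were higher with EZH2 than with IgG and 38 lower (12.0% and 1.27% of all transcripts), 142 higher with EZH2 than in total RNA and 8 lower (8.83% and 5.87%), and 164 higher with IgG than in total RNA and 13 lower (2.41% and 8.25%). Centred on all transcripts, the EZH2 ratio to total RNA had a median of 0.35, with 162 and 45 members past the thresholds, and the IgG ratio 0.13, with 130 and 83. lincRNA_FPKM was above 0.1 in 87.5% and above 1 in 20.1%. With the share taken of transcripts found with EZH2, chromosomes ranged from 5.95% to 15.8%.

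Added after seeing the data, the 223 members whose ratio was no whole multiple of the step had median log2 ratios of -0.44 for EZH2 against IgG (35 at or above 1, 78 at or below -1), 1.27 for EZH2 against total RNA (132 and 11) and 1.83 for IgG against total RNA (173 and 10), and 87.0% were above 0 in total RNA. Keeping the 7 identifiers (543 members) or leaving out the 4 consecutive members on chromosome 15 (532) moved no value past its tolerance. The lower EZH2 to IgG median of the 223 members is partly built in, because every ratio under the step falls among them. The cause of the other moves was not tested. No paired analysis was possible because there is 1 library per antibody and 1 of total RNA. Depth is unknown. If the step of the precipitate ratio is 1 fragment in each library, 1 IgG fragment carries the FPKM of 5.05 EZH2 fragments and the ratio is coarse in many members.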
